A study of Mus musculus with 8 samples.

Results

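The 81 genes described here encode proteins of the cytosolic ribosome, the particle that makes the cell's proteins. They were chosen by symbol alone, as all symbols of the count tables that consist of Rpl or Rps, a number and the usual endings, together with Rplp0, Rplp1, Rplp2 and Rpsa. They are 81 of 23393 gene symbols, and 2 further symbols of this form are not analysed here. Of the 81 genes, 79 passed the filter on low counts and were tested, comprising 42 large subunit genes, 3 genes of the P-stalk, 29 small subunit genes and 5 paralogues. The other two, Rpl10l and Rpl26, had 0 counts in every library.

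RNA was sequenced from whole lysates of prefrontal cortex of C57BL6/J mice aged 6 to 8 weeks, all injected with adeno-associated virus of serotype 9 (AAV9), in 4 groups of 2 libraries. The group called shAdnp, whose titles name Adnp, was set against the Adnp-set GFP group, which received a virus for green fluorescent protein. The group called shPogz, whose titles name Pogz, was set against a separate Pogz-set GFP group. The treatment label of both hairpin groups names ASH1L, so the groups are called by their titles. The design text speaks of 3 knockdown and 2 control mice, with the transgene promoter and the cells reached not given in the sources used here. The labels call the libraries of a group biological duplicates, and p-values measure the spread between these libraries.

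Each cytosolic ribosome has a large subunit, which joins amino acids, and a small subunit, which reads the mRNA. A flexible stalk of acidic P proteins on the large subunit recruits the elongation factors. Mammalian ribosomal protein mRNAs begin with a run of pyrimidines, the terminal oligopyrimidine tract, through which mTOR and the RNA-binding protein Larp1 set their translation. In neurons these mRNAs are also found in dendrites and axons, and free ribosomal proteins such as Rpl5 and Rpl11 can bind Mdm2, the inhibitor of p53.

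Total counts ranged from 27501722 to 69002749 per library. Neither targeted gene passed the test between hairpin and GFP libraries. Adnp was at 87.2 and 118 CPM, counts scaled by TMM library size, in shAdnp, against 137 and 111 CPM in Adnp-set GFP (log2 fold change -0.27, SE 0.19). Pogz was at 49.0 and 37.3 CPM in shPogz, against 54.4 and 53.1 CPM in Pogz-set GFP (log2 fold change -0.32, SE 0.16). The edgeR adjusted p was 0.768 for Adnp and 0.667 for Pogz, so the groups keep the names in their titles. The groups overlapped for Adnp, while both shPogz libraries lay below both controls for Pogz. The ribosomal RNA precursor Rn45s took 7.62% of the counts of shAdnp replicate 1 and 0.134% to 0.740% of those of the other libraries.

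Pyrimidine runs at the start were more frequent in these genes than in others, which describes the sequences and was not tested. RefSeq promoters of GRCm38.p6 (250 bases before to 50 after an annotated start) were found for 61 of the 81 genes. A run of at least 8 C or T on the coding strand within 25 bases of a start was present in 36 of the 61, or 59.0%, against 27% of 12447 tested genes with a promoter in the same table. The longest such run had a median length of 9 bases in the family and 6 bases in all tested genes. The motif CCGGAAG, searched on both strands over the 300 bases, was present in 24 of the 61 (39.3%) and in 16.2% of tested genes. Its reverse complement, CTTCCGG, can overlap a pyrimidine run. GGGCGG on either strand was about as frequent in the family (62.3%) as in all tested genes (62.8%), and TATAAA lay 40 to 10 bases before the start on the coding strand in 1 of the 61 (1.64%, against 1.86%). These are matches of letters, not sites of binding.

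The 80 bases around the start, 60 before and 20 after it, are shown for genes that the comparisons below turn on, with the longest pyrimidine run in capitals. Rplp2, Rplp0 and Rpl15 were among the genes with the smallest p in shAdnp, as were Rpl18, Rpl7a and Rps6 in shPogz. Rps10 stood above its controls in both sets, and Rpl27a had the smallest p below 0 between the GFP groups. The build is GRCm38.p6.
Rplp2 (chr7:141447591-141447670, plus strand): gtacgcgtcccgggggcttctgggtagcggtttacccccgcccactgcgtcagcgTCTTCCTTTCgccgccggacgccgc
Rplp0 (chr5:115559407-115559486, plus strand): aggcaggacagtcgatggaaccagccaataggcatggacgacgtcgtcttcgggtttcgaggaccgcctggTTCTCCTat
Rpl15 (chr14:18270967-18271046, minus strand): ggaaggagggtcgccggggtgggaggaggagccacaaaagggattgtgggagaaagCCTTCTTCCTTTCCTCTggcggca
Rpl18 (chr7:45718011-45718090, plus strand): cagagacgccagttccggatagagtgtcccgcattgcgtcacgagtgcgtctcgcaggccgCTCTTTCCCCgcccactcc
Rpl7a (chr2:26910747-26910826, plus strand): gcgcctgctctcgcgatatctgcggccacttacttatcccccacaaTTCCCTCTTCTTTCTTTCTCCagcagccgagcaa
Rps6 (chr4:86857348-86857427, minus strand): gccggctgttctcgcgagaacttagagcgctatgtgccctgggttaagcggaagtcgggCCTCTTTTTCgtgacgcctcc
Rps10 (chr17:27635225-27635304, minus strand): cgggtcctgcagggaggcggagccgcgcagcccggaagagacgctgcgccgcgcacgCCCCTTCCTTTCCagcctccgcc
Rpl27a (chr7:109519135-109519214, plus strand): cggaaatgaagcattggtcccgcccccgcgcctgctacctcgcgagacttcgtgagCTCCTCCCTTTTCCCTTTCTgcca
The run was 21 bases long in Rpl7a, 20 in Rpl27a and 17 in Rpl15, and 7 in Rplp0. Long runs stood both in genes above 0 (Rpl7a) and in genes below 0 (Rpl15) in the comparisons.

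Levels of the genes were compared per length, as TPM, which divides counts by exon length and scales each library to the same total, with exon lengths of GENCODE mouse release 21 on GRCm38, averaged over the 8 libraries. The tested members had a median of 96.8 TPM, against 20.5 TPM for all tested genes with a length. Rplp1, a P-stalk protein, was the highest at 1789 TPM (1511 to 1966 over the libraries). Rpl41, the shortest ribosomal protein, averaged 1019.6 TPM (916 to 1226). Rpl4, which lines the exit tunnel, averaged 1016 TPM (919 to 1168), and Rps15, a small subunit protein, 1006 TPM (901 to 1099). These 3 overlapped over the libraries. By class the median was 411 TPM for the P-stalk, 113 TPM for the small subunit and 82.2 TPM for the large subunit.

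Proteins present once per ribosome did not have equal counts per length. Among core members the lowest tested were Rpl30 at 0.763 TPM, Rpl34 at 1.09 TPM, Rps27 at 4.34 TPM and Rps13 at 5.22 TPM, and Rpl26 was listed at 0. The order depends on the length used: on principal transcripts Rpl30 was at 1.14 TPM, Rpl34 at 3.31 TPM, Rps27 at 5.80 TPM and Rps13 at 9.33 TPM, with Rpl5, Rpl28, Rps23 and Rps16 (6.35 to 8.68 TPM) between Rps27 and Rps13. Ribosomal protein genes have many processed pseudogenes, and how reads with several matches were counted is not stated. Of the 81 genes, 58 shared at least 20% of their 50-base mRNA windows with an annotated pseudogene. The share of a gene's 50-base windows also present in another annotated gene had a median of 53.7% and reached 98.6% in Rps27. Core members with under 25% of windows shared had a median of 270.3 TPM (9 genes). The median was 149 TPM for 25% to 50% (21 genes), 113 TPM for 50% to 75% (23 genes) and 28.2 TPM for 75% to 100% (21 genes). Across the 74 core members, Spearman's rho between the shared percentage and TPM on principal transcripts was -0.47, a description over genes of the same libraries. Levels of members with much shared sequence are therefore uncertain, and the part of shared sequence in them was not tested.

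**Figure D1:**
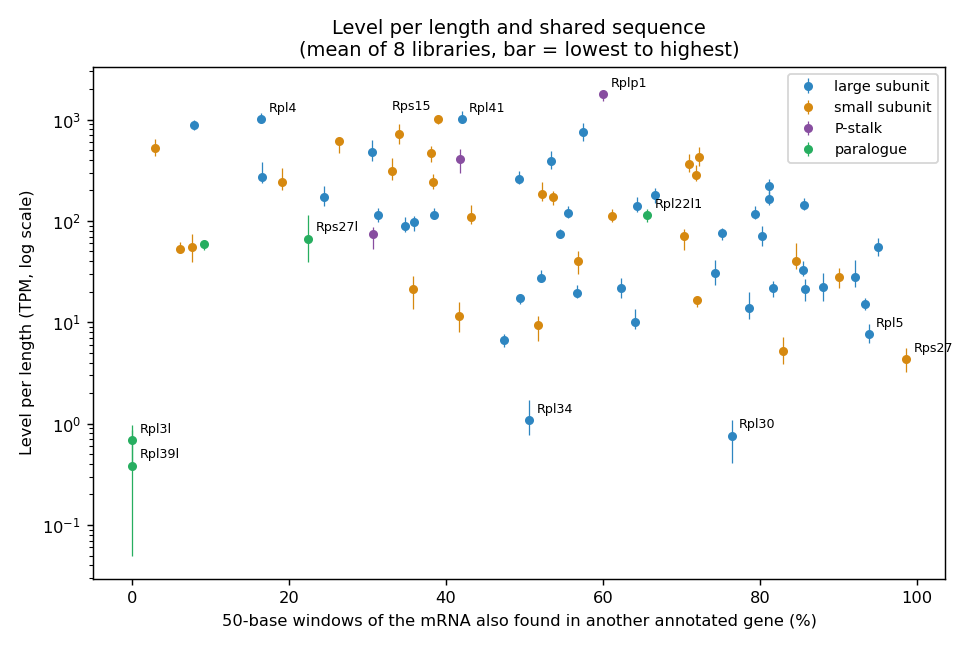
Mean level per length of 76 of the tested ribosomal protein genes (TPM, log axis; bars from the lowest to the highest of 8 libraries) against the percentage of its 50-base mRNA windows found in another annotated gene. Over all tested members, those under 25% other than paralogues had a median of 270.3 TPM, those from 75% upward 28.2 TPM, and Rplp1 was the highest at 1789 TPM. The bar of Rpl39l is cut short, since 1 library was at 0.

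As a whole, the family took less than 1% of the counts in each library and its share overlapped between hairpin and GFP groups in both sets. It was 0.481% and 0.452% in shAdnp, against 0.411% and 0.463% in Adnp-set GFP. It was 0.490% and 0.612% in shPogz, against 0.513% and 0.474% in Pogz-set GFP. With Rn45s left out of the totals, it was 0.521% and 0.456% in shAdnp, against 0.411% and 0.465% in Adnp-set GFP, and the groups still overlapped. The exact 95% binomial intervals, which cover counting error only, ran from 0.409% to 0.412% for the lowest library and from 0.610% to 0.615% for the highest, far narrower than the spread within a group. The group means were 0.467% ± 0.0205 in shAdnp and 0.437% ± 0.0373 in Adnp-set GFP, and 0.551% ± 0.0864 in shPogz and 0.493% ± 0.0276 in Pogz-set GFP (SD, n = 2 each). With 2 libraries against 2, an exact two-sided permutation test cannot go below p = 0.333.

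Summed over members, the level was 5275 and 4530.4 CPM in shAdnp, against 4229 and 4801 CPM in Adnp-set GFP. It was 4764 and 5639 CPM in shPogz, against 4987 and 4645 CPM in Pogz-set GFP. In each set the higher hairpin library lay above both controls and the lower hairpin library lay between them.

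From library to library many of the genes deviated in the same direction. The median deviation of the 79 tested members from each gene's own mean over 8 libraries, on the log2(CPM + 0.5) scale, was 0.10 and -0.10 in shAdnp, against -0.16 and -0.01 in Adnp-set GFP. It was -0.02 and 0.19 in shPogz, against 0.07 and -0.06 in Pogz-set GFP. Of the 79 members, 46 had their highest value in shPogz replicate 2 and 14 in shAdnp replicate 1. Adnp-set GFP replicate 1 held the lowest value of 37 members, and shAdnp replicate 2 that of 18. The libraries at the extremes therefore belonged to different groups, and the 2 libraries of each hairpin group stood on opposite sides of 0.

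**Figure D2:**
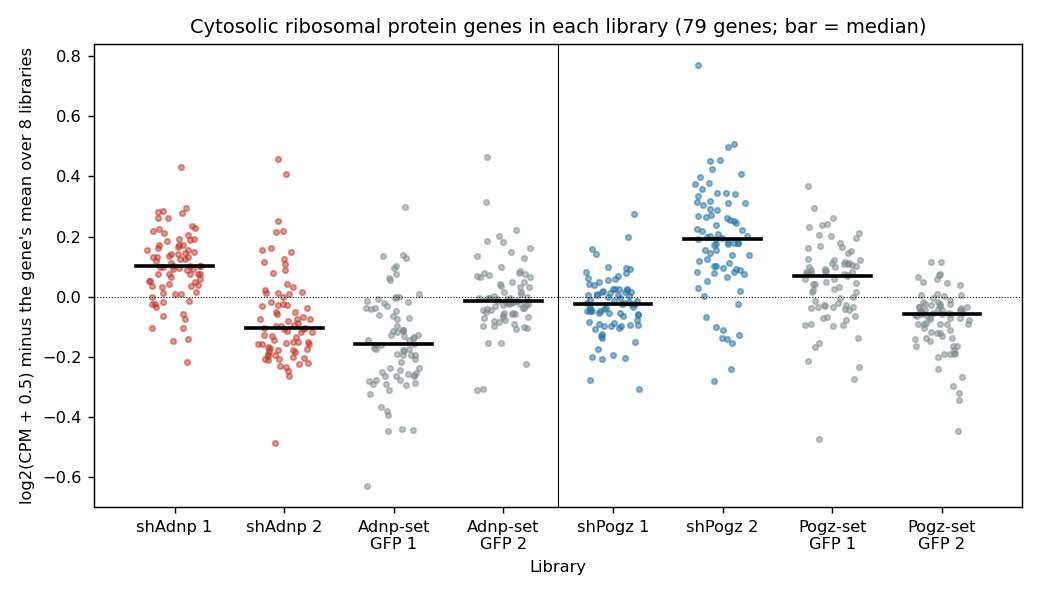
Deviation of each of the 79 tested ribosomal protein genes from its own mean over 8 libraries (log2(CPM + 0.5) scale; points are genes, bars are medians), by library. The medians of the shAdnp libraries were 0.10 and -0.10 and those of the shPogz libraries -0.02 and 0.19, so that the libraries of each hairpin group lay on both sides of 0.

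In shAdnp against Adnp-set GFP, no ribosomal protein gene passed the test. The genes lay slightly above 0 as a family, with a median log2 fold change of 0.08 against -0.01 for all 17415 tested genes. Of the 79 members, 59 lay above 0, where 47.7% of all genes did. With edgeR's quasi-likelihood test and Benjamini-Hochberg adjustment, 0 members passed an adjusted p of 0.05 in either direction, and 0% of all tested genes passed. DESeq2 called 0 members (2.63% of the genes it tested) and limma-voom called 0 members (0% of genes). At an unadjusted p under 0.05, 4 members lay above 0 (6.67% of all genes) and 0 below (1.69% of all genes). Of these 4, Rpl39l was tested only because its shAdnp counts reached the minimum. Both shAdnp libraries stood above both controls in 17 members, or 21.5%, where 20.4% of all genes did, and below both in 1 member, where 21% did. The first share is near that of all genes, and Rpl39l is among the 17 and among the 59 above 0. Apart from genes described below, the 17 included Rpl10a, Rpl11, Rpl12, Rpl13a, Rpl21, Rpl28 and Rps13.

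Of the classes, the P-stalk had the highest median log2 fold change in this comparison, 0.37 over its 3 genes, and 0 of the 3 passed. Rplp0, the scaffold of the stalk (chr5:115559467-115563727), was at 206 and 174 CPM in shAdnp, against 129 and 165 CPM in Adnp-set GFP. Rplp2, which binds the scaffold together with Rplp1, was at 24.3 and 24.7 CPM in shAdnp, against 15.5 and 21.7 CPM in Adnp-set GFP. In both genes the hairpin libraries lay above the controls, and the lower control was Adnp-set GFP replicate 1. The log2 fold changes were 0.37 (SE 0.15) for Rplp0 and 0.40 (SE 0.17) for Rplp2, and neither passed edgeR's test (adjusted p = 0.536 and 0.581). Leaving out single libraries moved Rplp0 between 0.22 and 0.55 and Rplp2 between 0.19 and 0.66. Rplp1 was at 283 and 239 CPM in shAdnp, against 209 and 257 CPM in Adnp-set GFP. Its groups overlapped (log2 fold change 0.17, SE 0.13).

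Of the 42 large subunit genes 30 lay above 0, and their median was 0.06 on the log2 scale. Rpl36 (chr17:56613416-56614243), a large subunit protein, had the smallest p of the family. It was at 28.4 and 27.5 CPM in shAdnp, against 19.1 and 23.2 CPM in Adnp-set GFP, and the groups did not overlap. Its log2 fold change of 0.40 (SE 0.13) had an edgeR p of 0.0116 and an adjusted p of 0.390. Leaving out 1 library at a time, its value ran between 0.29 and 0.55. At the other end was Rpl15, which is needed to form the large subunit, at 53.5 and 42.6 CPM in shAdnp, against 52.0 and 57.6 CPM in Adnp-set GFP. These overlapped, and the log2 fold change was -0.19 (SE 0.13), which ran between -0.35 and -0.023 with single libraries left out. Rpl37, Rpl23a and Rpl24 were at -0.08, -0.15 and -0.13 on the log2 scale, each with a standard error of 0.12 to 0.27, and overlapped.

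Of the 29 small subunit genes 23 lay above 0, and their median was 0.10 on the log2 scale. Rpsa, also known as the laminin receptor precursor, was at 135 and 122 CPM in shAdnp, against 100.5 and 118 CPM in Adnp-set GFP. Its log2 fold change of 0.23 (SE 0.12) did not pass (edgeR adjusted p = 0.665) and ran between 0.14 and 0.36 with single libraries left out. Rps16 had the largest small subunit value, 0.54 (SE 0.28), at 3.79 and 4.84 CPM in shAdnp, against 2.96 and 2.99 CPM in Adnp-set GFP (named after its values were seen). Rps27a, which is made as a fusion with ubiquitin, was at 4.47 and 3.47 CPM in shAdnp, against 4.40 and 4.19 CPM in Adnp-set GFP (log2 fold change -0.11).

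The family's median depended on single libraries. Without shAdnp replicate 1 the family's median was -0.01, with 38 of the 78 members then tested above 0. Without shAdnp replicate 2 it was 0.21, with 70 above 0. Leaving out replicate 1 of Adnp-set GFP gave 0.04, and leaving out its replicate 2 gave 0.16. Of the 29 small subunit genes, 14 lay above 0 when shAdnp replicate 1 was left out and 29 when replicate 2 was. For the P-stalk, leaving out the first shAdnp library gave a median of 0.26 and leaving out the second gave 0.40. It was 0.19 without the first library of Adnp-set GFP and 0.55 without the second.

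In shPogz against Pogz-set GFP, no ribosomal protein gene passed the test either. The median log2 fold change was 0.09, against -0.02 for all tested genes, and 65 of the 79 members lay above 0, where 46.4% of all genes did. With edgeR and Benjamini-Hochberg adjustment 0 members and 0% of all genes passed. DESeq2 called 0 members (0.628% of the genes it tested), and limma-voom called 0 members (0% of genes). At an unadjusted p under 0.05, 0 members lay above 0 (4.05% of all genes) and 1 below (2.65% of all genes). Both shPogz libraries stood above both controls in 14 members (17.7%, against 19% of all genes) and below both in 3 (against 21.3% of all genes). Apart from genes described below, the 14 included Rpl3, Rpl13, Rpl32, Rpl38, Rps9 and Rps14.

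Of the large subunit genes, 30 of 42 lay above 0 (median 0.08). Rpl18, a large subunit protein (chr7:45715457-45720836), was at 29.2 and 37.8 CPM in shPogz, against 25.5 and 27.9 CPM in Pogz-set GFP. Rpl7a, a large subunit protein, was at 41.2 and 48.1 CPM in shPogz, against 37.8 and 38.3 CPM in Pogz-set GFP. Neither gene's groups overlapped, with replicate 2 the higher shPogz library, and the log2 fold changes were 0.33 (SE 0.16) and 0.23 (SE 0.12). Rpl39, which lines the exit tunnel, was at 41.8 and 61.4 CPM in shPogz, against 38.4 and 43.6 CPM in Pogz-set GFP. Its groups overlapped (log2 fold change 0.33, SE 0.18). With single libraries left out, Rpl18 ran between 0.13 and 0.54, Rpl7a between 0.12 and 0.38 and Rpl39 between 0.027 and 0.62, lowest without shPogz replicate 2. All 3 had an edgeR adjusted p of 0.667.

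Rpl29, a heparin-binding large subunit protein (chr9:106429454-106431568), lay on the other side of 0. It was at 53.1 and 45.2 CPM in shPogz, against 61.5 and 57.5 CPM in Pogz-set GFP. The shPogz libraries lay below both controls, and the lower one was replicate 2, in which most of the family was highest. By edgeR its log2 fold change was -0.28 (SE 0.12) with an adjusted p of 0.667. Leaving out single libraries moved this between -0.36 and -0.16. Rpl28 was at 2.20 and 2.33 CPM in shPogz, against 2.86 and 2.50 CPM in Pogz-set GFP. Rpl27 and Rpl5 were at -0.16 (SE 0.25) and -0.12 (SE 0.25) on the log2 scale, and their groups overlapped.

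In this comparison 28 of the 29 small subunit genes lay above 0, and their median was 0.10 on the log2 scale. Rps6, the substrate of the S6 kinases, was at 9.03 and 13.9 CPM in shPogz, against 8.98 and 8.44 CPM in Pogz-set GFP. The first shPogz library stood just above the higher control. The log2 fold change was 0.40 (SE 0.21), which did not pass (edgeR adjusted p = 0.667), and it ran from 0.054 without shPogz replicate 2 to 0.72 without replicate 1. The exception among the small subunit genes was Rps23, in the decoding centre, at 1.99 and 2.59 CPM in shPogz, against 2.79 and 2.60 CPM in Pogz-set GFP. In the P-stalk Rplp0 was at 176 and 215 CPM in shPogz, against 181 and 177 CPM in Pogz-set GFP. The 3 P-stalk genes had log2 fold changes between -0.00 and 0.13.

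The count again rested on 1 library. Without shPogz replicate 2, 34 of the 79 members lay above 0 and the median was -0.02, while without shPogz replicate 1, 71 lay above 0 and the median was 0.25. Among small subunit genes, 15 of 29 lay above 0 without shPogz replicate 2. Among P-stalk genes 0 of 3 lay above 0 without that library (median -0.09). Leaving out replicate 1 of Pogz-set GFP gave a family median of 0.20, and leaving out its replicate 2 gave 0.07.

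**Figure D3:**
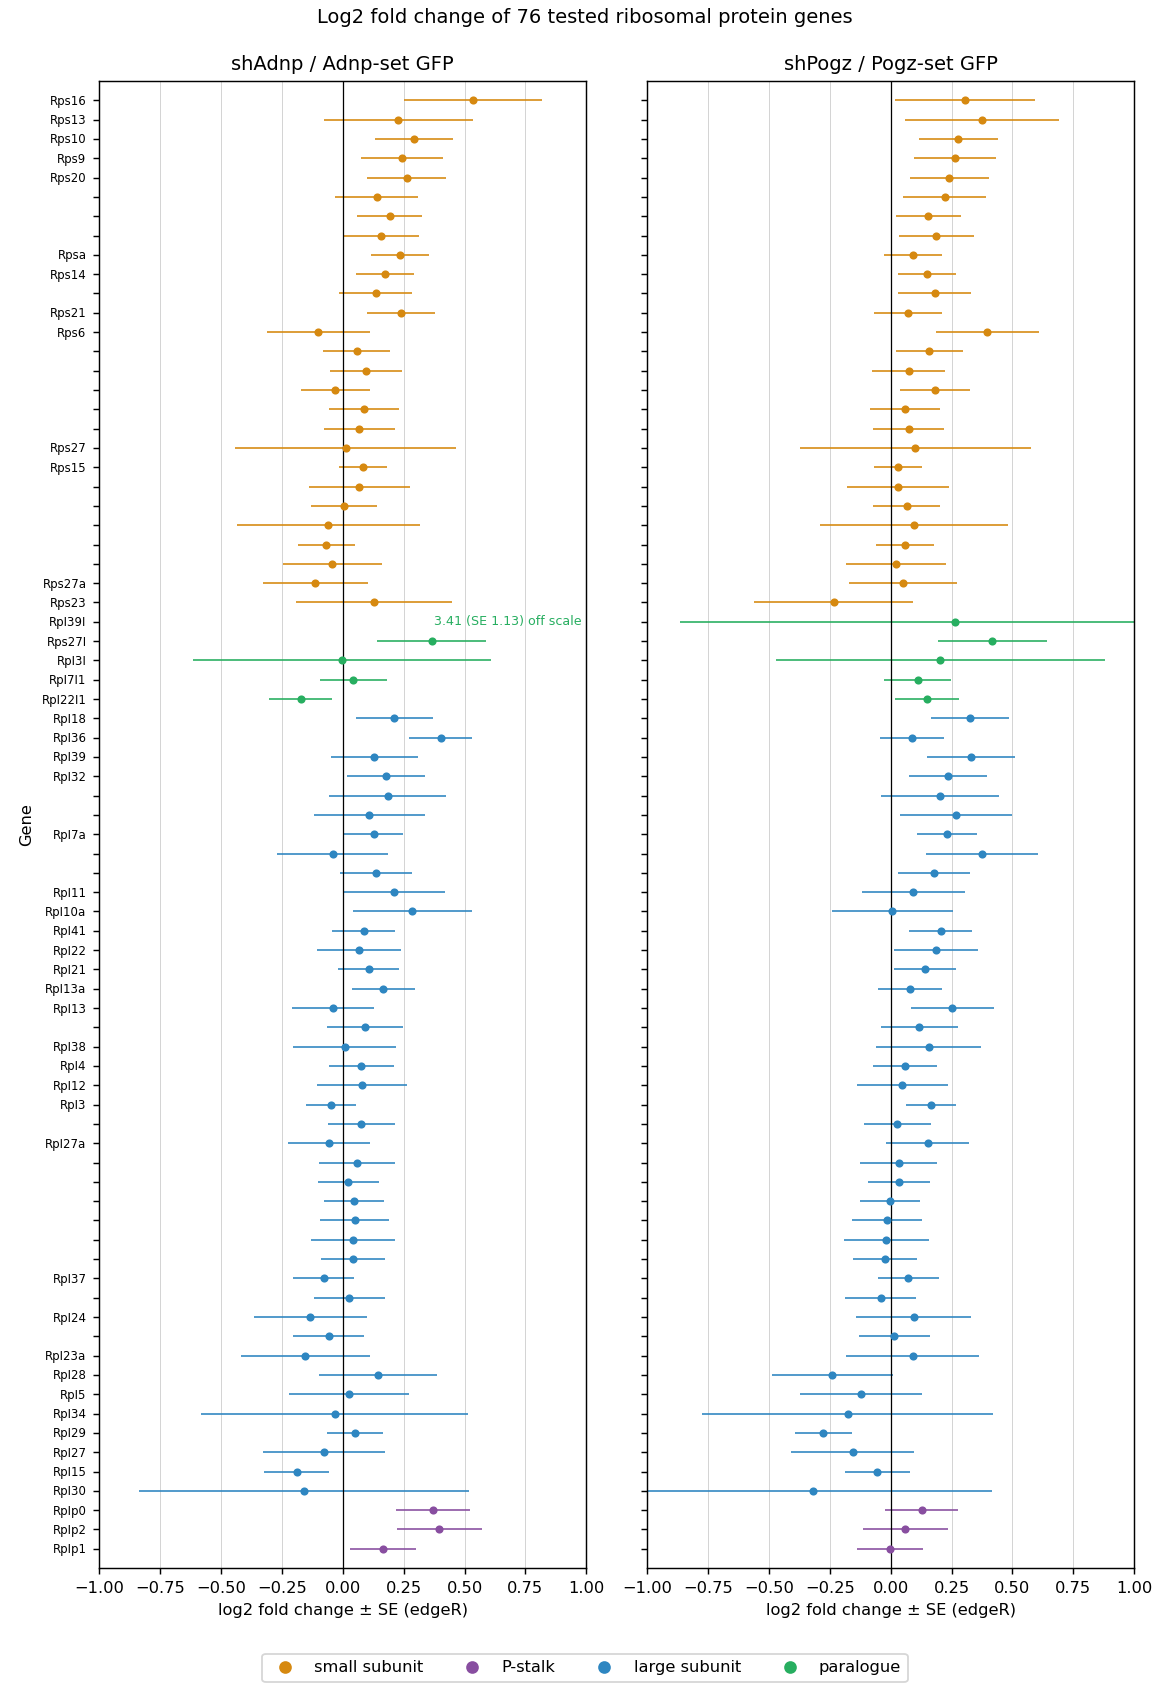
Log2 fold change with its standard error (edgeR) of 76 of the tested ribosomal protein genes, named where the text describes them, in shAdnp over Adnp-set GFP (left) and shPogz over Pogz-set GFP (right), coloured by class. Values of core genes lay between -0.32 and 0.54, none passed the adjusted test, and over all 79 tested members 59 (left) and 65 (right) were above 0. Rpl39l in shAdnp lies off the axis, and the bars of Rpl30 and Rpl39l in shPogz run past it.

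The response to the 2 hairpins was compared directly as the shPogz difference minus the shAdnp difference. No member passed edgeR's test (smallest adjusted p 0.978; 0% of all genes passed). DESeq2 called 0 members (0.0147% of the genes it tested), as did limma-voom (0%). At an unadjusted p under 0.05 there were 0 members above 0 (1.1% of all genes) and 0 below (2.41%). The median was 0.01, with 42 of 79 members above 0, where 46.9% of all genes were. Above 0, the smallest p values belonged to Rpl22l1 (0.32, SE 0.18) and Rps6 (0.50, SE 0.30). Below 0, leaving out Rpl39l with its few counts, they belonged to Rpl29 (-0.33, SE 0.16), Rpl36 (-0.31, SE 0.18), Rplp2 (-0.34, SE 0.25) and Rplp0 (-0.24, SE 0.21).

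Averaged over both sets, the hairpin effect had a median of 0.08 over the members and -0.02 over all genes, with 62 of 79 members above 0 and 44.7% of all genes. Rpl39l, which passed the filter through shAdnp alone, is among the 62. In edgeR 0 members and 0% of all genes passed, and at an unadjusted p under 0.05 there were 6 members above 0 (8.72% of all genes) and 0 below (3.16%). DESeq2 called 0 members (3.84% of the genes it tested) and limma-voom 0 (0%). Both hairpin libraries stood above both controls in each set for 3 of the 79 members, Rps10, Rps20 and Rps21. This was a smaller share than among all genes, of which 7.12% did, so the 3 genes do not set the family apart. Both hairpin libraries lay below both controls in each set for 0 members, where 5.31% of all genes did. Rps10 and Rps20 are small subunit proteins that are ubiquitinated on stalled ribosomes.

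Rps10 was at 19.5 and 20.8 CPM in shAdnp, against 14.0 and 18.9 CPM in Adnp-set GFP, and at 19.4 and 22.2 CPM in shPogz, against 16.4 and 17.9 CPM in Pogz-set GFP. Averaged over the sets it stood at 0.28 on the log2 scale (SE 0.11, adjusted p = 0.374 by edgeR). Rps20 was at 58.5 and 56.0 CPM in shAdnp, against 40.6 and 54.9 CPM in Adnp-set GFP, and at 56.2 and 73.3 CPM in shPogz, against 54.9 and 54.6 CPM in Pogz-set GFP. Rps21, also of the small subunit, was at 72.7 and 70.5 CPM in shAdnp, against 51.3 and 70.01 CPM in Adnp-set GFP, and at 66.9 and 70.4 CPM in shPogz, against 66.9 and 63.8 CPM in Pogz-set GFP. In Rps21 the nearest hairpin and control libraries were level to within rounding in the Pogz set, and none of the 3 genes passed the test.

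The 2 GFP groups, which received the same treatment in separate sets, were also compared, and the family's median between them was above 0. In Pogz-set GFP against Adnp-set GFP the median was 0.08 over members and 0.01 over all genes. Of the members, 54 lay above 0, where 51.8% of all genes did. No member passed edgeR's test (0.00574% of all genes did), DESeq2 called 0 members (0.374% of the genes it tested), and limma-voom called 0 (0.00574% of genes). At an unadjusted p under 0.05 there was 1 member above 0 (4.65% of all genes) and 0 below (2.7%). Pogz-set GFP stood above Adnp-set GFP without overlap in 17 members (21.2% of all genes) and below it in 4 (22.3%). Rpl39l, with 2 and 4 counts against 2 and 0, is among these 17 and among the 54 above 0. All 3 P-stalk genes lay above 0 between the GFP groups (median 0.16). Rplp0 was at 181 and 177 CPM in Pogz-set GFP, against 129 and 165 CPM in Adnp-set GFP, without overlap (log2 fold change 0.28, SE 0.15). Rpl27a, a large subunit protein, was at 28.5 and 24.7 CPM in Pogz-set GFP, against 30.0 and 37.9 CPM in Adnp-set GFP (log2 fold change -0.36, SE 0.17). Levels of shAdnp and shPogz were therefore not set against each other.

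Of the 5 tested paralogues 0 passed in either set. Rpl39l, a counterpart of Rpl39 known mainly from testis, had 12 and 10 counts in shAdnp, against 2 and 0 counts in Adnp-set GFP. It had 2 and 4 counts in shPogz, against 2 and 4 counts in Pogz-set GFP. With a minimum count of 10, Rpl39l passed the filter on low counts through the shAdnp libraries alone. Its difference in the Adnp set is fixed by that selection, so its fitted value and p there are not used as support. It remains among the tested members in the counts given above, where it is named. Of its 50-base windows, 0% were shared with another gene.

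Rps27l, a paralogue of Rps27 and in human cells a target of p53, varied most of the tested members over the libraries (SD 0.42 on the log2 scale). It was at 9.86 and 8.68 CPM in shAdnp, against 6.34 and 8.04 CPM in Adnp-set GFP, and at 11.7 and 17.6 CPM in shPogz, against 12.2 and 9.75 CPM in Pogz-set GFP. The groups overlapped in the Pogz set only. It was also the member with the smallest p between the GFP groups (log2 fold change 0.60 by edgeR, SE 0.23, adjusted p = 0.672). In shPogz its log2 fold change was 0.42 (SE 0.22), which ran between 0.091 and 0.72 with single libraries left out. By length Rps27l averaged 67.0 TPM and Rps27 4.34 TPM, but 98.6% of the windows of Rps27 were shared against 22.4% of those of Rps27l.

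Rpl22l1, whose transcript is bound by Rpl22 in mice, was at 15.6 and 15.5 CPM in shAdnp, against 18.1 and 17.1 CPM in Adnp-set GFP. It was the 1 member whose shAdnp libraries both lay below both controls (log2 fold change -0.17, SE 0.13). Rpl22l1 was at 18.6 and 19.5 CPM in shPogz, against 18.7 and 15.7 CPM in Pogz-set GFP, and its partner Rpl22 did not pass in either set (0.07 and 0.19). Rpl3l, known from striated muscle, had 39 counts in shAdnp against 43 in Adnp-set GFP, and 23 in shPogz against 24 in Pogz-set GFP. Rpl7l1 differed by 0.04 and 0.11 on the log2 scale. Rpl10l, known from testis, was at 0 counts throughout, where 3 counts would be 0.043 to 0.109 CPM by library.

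Of ribosomal proteins with other symbols, 4 were measured and 0 passed in either set, among them Gnb2l1, the scaffold protein Rack1. Gnb2l1 was at 246 and 205 CPM in shAdnp, against 168 and 207 CPM in Adnp-set GFP, and at 216 and 279 CPM in shPogz, against 226 and 209 CPM in Pogz-set GFP. Like the family's median, it was highest in shPogz replicate 2 and lowest in Adnp-set GFP replicate 1.

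The rest of the translation machinery was examined as lists. Of 24 other genes whose mRNAs carry the oligopyrimidine tract, 0 passed in either set, and their medians were 0.04 in shAdnp (14 above 0) and 0.09 in shPogz (20 above 0). The largest value in that list was Vim, an intermediate filament gene of astrocytes and other non-neuronal cells, at 161 and 107 CPM in shAdnp, against 29.2 and 45.0 CPM in Adnp-set GFP. Of 45 translation factors 0 passed, with medians of -0.04 in shAdnp (12 above 0) and 0.08 in shPogz (30 above 0). Of 88 ribosome biogenesis genes 0 passed, with medians of -0.01 and 0.06. The smallest p there belonged to Gnl3l, a nucleolar GTPase, at 309 and 303 CPM in shAdnp against 374 and 386 CPM in Adnp-set GFP, and to Ddx21, a nucleolar helicase, at 51.4 and 67.3 CPM in shPogz against 46.6 and 43.8 CPM in Pogz-set GFP. Of 12 genes of RNA polymerase I and its factors 0 passed, with medians of -0.02 and 0.02.

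Of 24 regulators of ribosomal protein synthesis 0 passed (medians 0.01 and 0.03). Eif4ebp1, a translation repressor that mTOR switches off, was at 7.11 and 11.6 CPM in shPogz, against 4.24 and 4.49 CPM in Pogz-set GFP. Trp53, which encodes p53, was at 13.2 and 15.2 CPM in shPogz, against 9.44 and 9.62 CPM in Pogz-set GFP. The groups did not overlap in either gene, and the log2 fold changes were 1.09 (SE 0.24) and 0.57 (SE 0.15), both with an edgeR adjusted p of 0.667. Rps6ka1, a kinase of the RSK family, was at 27.6 and 23.2 CPM in shAdnp, against 13.9 and 17.7 CPM in Adnp-set GFP (0.69, SE 0.18; edgeR adjusted p = 0.317). Mtor itself was at 214 and 165 CPM in shPogz, against 228 and 235 CPM in Pogz-set GFP.

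Genes of the mitochondrial ribosome, a separate particle that translates mitochondrial mRNAs, mostly lay below 0 in the Adnp set. Of 76 such genes 66 lay below 0 in shAdnp, with a median of -0.11, and 0 passed edgeR's test. The other 10 lay above 0, where 47.7% of all genes did. In Pogz-set GFP against Adnp-set GFP 60 of the 76 also lay below 0, with a median of -0.09. Summed, they were at 1827 and 1683 CPM in shAdnp, against 1815 and 1977 CPM in Adnp-set GFP, so the groups overlapped. Mrpl41, a large subunit protein, was at 34.6 and 31.1 CPM in shAdnp, against 41.1 and 42.0 CPM in Adnp-set GFP (log2 fold change -0.34 by edgeR, SE 0.11, adjusted p = 0.381). In shPogz 46 of the 76 lay above 0, with a median of 0.04. The mitochondrial median in shAdnp ran from -0.16 to -0.03 with 1 library of that set left out at a time, while that of the cytosolic genes ran from -0.01 to 0.21. The difference between the 2 lists was not tested.

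**Figure D4:**
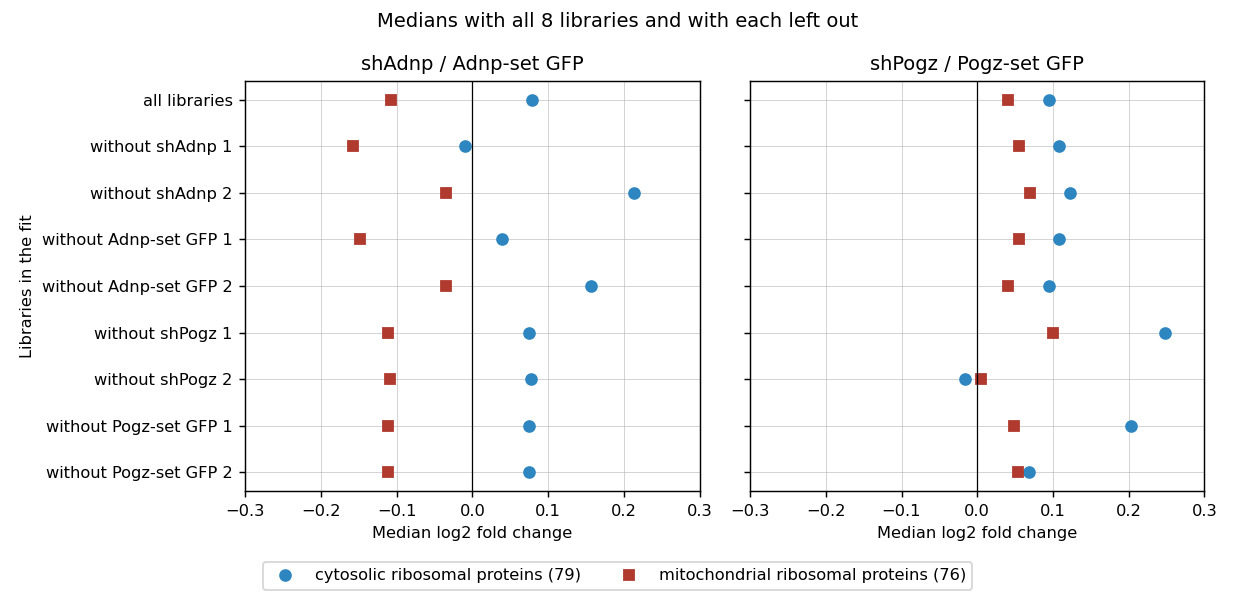
Median log2 fold change of the 79 cytosolic and 76 mitochondrial ribosomal protein genes in shAdnp over Adnp-set GFP (left) and shPogz over Pogz-set GFP (right), with all libraries and with each library left out. The cytosolic median lay on either side of 0 in both sets (-0.01 without shAdnp replicate 1 and 0.21 without replicate 2; -0.02 without shPogz replicate 2 and 0.25 without replicate 1).

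The libraries with the highest family sums, shPogz replicate 2 and shAdnp replicate 1, also had the highest microglial and oligodendrocyte marker sums. The other libraries did not keep this order. Pogz-set GFP replicate 1 had 4987 CPM for the family and 811 CPM for microglial markers, and shAdnp replicate 2 had 4530.4 and 987 CPM. Other marker lists gave other orders. Striatal markers were highest in shPogz replicate 2 (209 CPM), with 123 CPM in shAdnp replicate 1. Astrocyte markers were lowest in shPogz replicate 2 (4566 CPM). Blood leukocyte markers were lower in shAdnp replicate 1 (60.3 CPM) than in shAdnp replicate 2 (98.0 CPM). In bulk tissue, fewer cells of a type and less RNA per cell cannot be told apart. The summed level of 10 microglial markers was 1445 and 987 CPM in shAdnp, against 479.5 and 616 CPM in Adnp-set GFP. It was 917 and 1437 CPM in shPogz, against 811 and 844 CPM in Pogz-set GFP. All 10 were detected, and 10 lay above 0 in shAdnp (median log2 fold change 1.04) and 9 in shPogz (0.35). In edgeR's adjusted test 0 passed, as did 0% of all genes in either set. At an unadjusted p under 0.05, 10 lay above 0 in shAdnp (6.67% of all genes) and 0 in shPogz (4.05% of all genes). The libraries with the highest microglial sums, shAdnp replicate 1 and shPogz replicate 2, were those in which most members had their highest value.

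The 10 neuronal markers summed to 10082 and 10709 CPM in shAdnp, against 11492 and 11058 CPM in Adnp-set GFP, and to 9520.0 and 7593 CPM in shPogz, against 9366 and 9916 CPM in Pogz-set GFP. Neuronal sums were the lowest in shPogz replicate 2. The 10 oligodendrocyte markers summed to 4282 and 2080.5 CPM in shAdnp, against 2652 and 3954 CPM in Adnp-set GFP, and to 3078 and 4535 CPM in shPogz, against 2669 and 3017 CPM in Pogz-set GFP. The 12 blood leukocyte markers summed to 60.3 and 98.0 CPM in shAdnp, against 12.5 and 39.2 CPM in Adnp-set GFP, and to 109.8 and 244 CPM in shPogz, against 58.0 and 106 CPM in Pogz-set GFP. Markers of meninges (7 tested) had a median of 0.90 in shAdnp, with 7 above 0, and 0.51 in shPogz, with 4 above 0 and 3 below. Summed, the meningeal markers overlapped in the Pogz set (421 and 394 CPM in shPogz, against 375 and 433 CPM). Markers of striatum (7) had medians of 0.18 and 0.62, astrocytes (10) 0.10 and -0.11, and oligodendrocyte precursors (8) 0.18 and -0.00. For endothelium (10) they were 0.14 and -0.09, and for choroid plexus (5) 0.39 and 0.16. In all these lists 0 genes passed. Of the neuronal markers 2 of 10 lay above 0 in shAdnp and 0 of 10 in shPogz. The part of these cell types, and of Rn45s in shAdnp replicate 1, in the levels of the ribosomal protein genes was not tested.

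**Figure D5:**
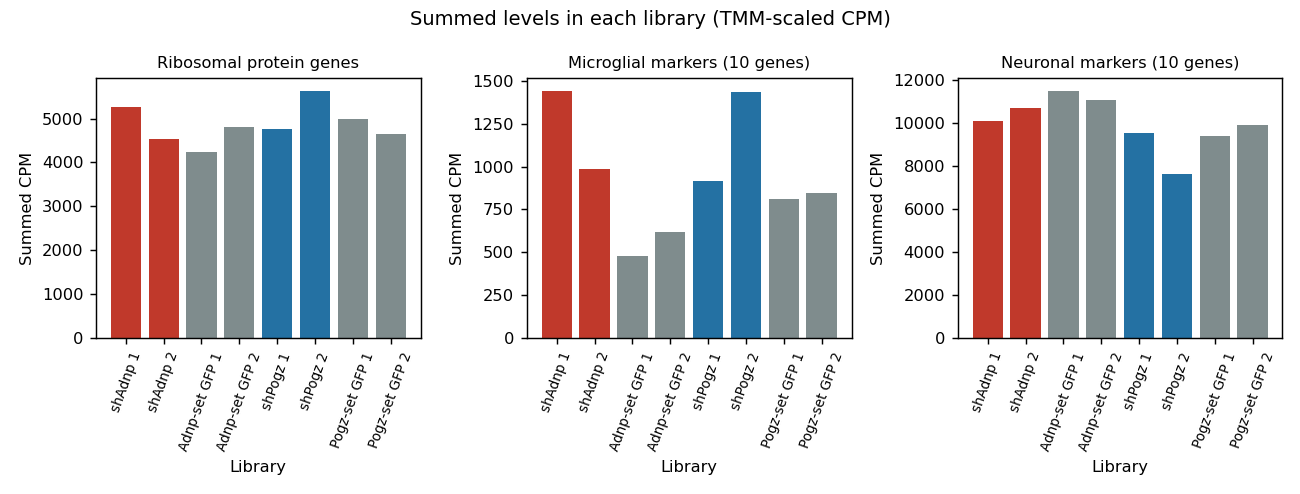
Summed TMM-scaled CPM of the ribosomal protein genes (left), of 10 microglial markers (middle) and of 10 neuronal markers (right) in each of the 8 libraries. The ribosomal protein sum was highest in shPogz replicate 2 (5639 CPM) and shAdnp replicate 1 (5275 CPM), which also had the highest microglial sums (1437 and 1445 CPM).

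The members were also compared by length and by shared sequence. Other tested genes with under 1000 exonic bases had a median log2 fold change of -0.02 in shAdnp and -0.00 in shPogz, against 0.09 and 0.10 for the 39 members of that length. The 13 members with under 25% of windows shared had medians of 0.10 in shAdnp and 0.19 in shPogz (a grouping chosen after seeing the data). Of these, 11 and 12 lay above 0, where 47.7% and 46.4% of all genes did. Rpl39l, which passed the filter through shAdnp alone, is among these 13 and these 11. For 25% to 50%, 50% to 75% and 75% to 100% the medians were 0.09, 0.08 and 0.04 in shAdnp. In shPogz they were 0.09, 0.08 and 0.10. Across 77 members, leaving out Rpl39l and Rpl3l with their few counts, Pearson's r between the log2 fold changes of the 2 sets was 0.33, a description over genes of the same libraries.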

How the data were processed

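The authors deposited raw read counts per gene symbol, 1 table per library. The submitters' processing notes name STAR, featureCounts, DESeq2 and mm10. Cutadapt and TopHat2 appear in the labels' protocols instead. Versions, strand setting and the handling of reads with several matches were not given in the sources used here. Libraries were stranded and depleted of ribosomal RNA, per the labels' protocols. The second shPogz library carries the number 3 in its column header. Of the identifiers, 25 had become calendar numbers (0.306% to 0.337% of counts) and 2 were blank names; these were left out.

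Counts were fitted in edgeR 4.0.16 (R 4.3.3) with TMM scaling, filterByExpr (minimum count 10), 1 mean per group over 8 libraries and robust quasi-likelihood tests (4 residual degrees of freedom, biological coefficient of variation 0.171), with Benjamini-Hochberg adjustment over 17415 genes at 0.05. The fit was tested on simulated data. Chi-square per degree of freedom between libraries was 15.0 to 394, so no library was a duplicate. TPM used exon lengths from GENCODE mouse release 21. Alternatives were DESeq2 1.42.0, limma-voom (limma 3.58.1), other scalings and filters, a replicate block and each library left out.

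Named genes are the 5 members with the smallest p in each direction of 5 contrasts, the 4 highest and 4 lowest by TPM, paralogue pairs, and at most 3 genes per list, of which a part is named. The members and lists were chosen with earlier results of these data known. The values of some single genes are not reported here.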

Additional observations from a re-analysis of the deposited data

How the results depend on the processing

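With edgeR, DESeq2 and limma-voom, under RLE, upper quartile and reduced TMM scaling, both other filters and each left-out library, 0 ribosomal protein genes passed in any of the 5 contrasts. The family's median with 1 library left out ran from -0.010 to 0.21 in shAdnp, from -0.016 to 0.25 in shPogz, from -0.12 to 0.16 for their difference, from 0.03 to 0.17 for the average and from 0.02 to 0.18 between the GFP groups. Single genes were followed only where they had the smallest p, and those that crossed 0 lay below 0 with all libraries. Members above 0 crossed as well. In shAdnp 59 of 79 lay above 0 with all libraries and 38 of 78 without shAdnp replicate 1. In shPogz 65 of 79 did with all libraries and 34 of 79 without shPogz replicate 2. In shAdnp Rpl23a ran from -0.31 to 0.041 and Rpl37 from -0.18 to 0.043. In shPogz Rpl27 ran from -0.27 to 0.014 and Rpl5 from -0.30 to 0.080. In the average Rpl30 ran from -0.68 to 0.052 and Rpl5 from -0.18 to 0.091. The cause was not tested. With the replicate number as a block, the medians were 0.08 in shAdnp and 0.09 in shPogz and 0 members passed, while all genes called numbered 144 in shAdnp and 26 in shPogz, 488 in the average and 18 between the GFP groups, against 0, 0, 0 and 1 without it. The correlation of deviations between same-numbered libraries was -0.01 in the Adnp set and 0.05 in the Pogz set. Over the other 4 pairs of groups it was -0.08, 0.13, 0.15 and 0.31. It was not over 0.1 in every pair and no label states a shared origin, so the numbers were not taken as pairing the libraries. DESeq2 called 423 genes in shAdnp, 106 in shPogz, 3 for the difference, 693 in the average and 72 between the GFP groups. Over principal transcripts, chosen after seeing the data, the family's median was 87.7 TPM, and over the longest transcript 104.5 TPM. Depth limits Rpl30, Rpl3l and Rpl39l most: they were the 3 tested members with under 10 counts in at least 1 library.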
